A study of Sus scrofa with 6 samples.

Results

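MEOX2, MME, HAPLN1, HHIP and ITGA4 are 5 pig genes whose RNA was higher in early reprogrammed stem cells, and lower in later ones, than in the fibroblasts those cells came from. They were chosen by their measured values: at least 2-fold higher in the early cells and at least 2-fold lower in the later cells than in fibroblasts, on log2(FPKM + 1). FPKM is the number of sequenced fragments of a gene, scaled to the gene's length and to the fragments mapped in the library. The table held 25322 gene IDs, of which 13998 reached an FPKM of 1 in at least 1 group and were compared. Of those, 12 IDs met both limits, or 0.0857%, and the 5 genes were all of the 12 that a reference table of IDs and symbols could name. The choice used both differences from the fibroblasts, and the difference between the stem cell groups follows from them, so the values of the 5 genes are a description and carry no test.

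RNA sequencing covered 6 libraries of cells from the Small Xiang Pig (Sus scrofa) in 3 groups of 2. P10 are induced pluripotent stem cells of the pig (piPSCs), taken at passage 10 and labelled Rex1 negative, P5 are piPSCs at passage 5 labelled Rex1 positive, and PEF are the progenitor fibroblasts at passage 5. The deposited table gives 1 FPKM column per group, so no spread between libraries, n or p-value can be attached to any value, and the order of close values cannot be judged against an error. The reprogramming factors, the number of clones and the source of the duplicates were not stated in the labels; passage and Rex1 state differ together between P10 and P5 and cannot be told apart.

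The 5 genes act in different parts of cell and tissue biology. MEOX2 is a homeobox transcription factor of paraxial mesoderm and somites that is also known from vascular smooth muscle and endothelium. HAPLN1 is the cartilage link protein, a secreted protein that ties proteoglycans such as aggrecan and versican to hyaluronan. HHIP sits on the cell surface or is shed from it, binds Hedgehog ligands and keeps them from their receptor, and it is itself a target gene of the pathway in mouse and human cells. MME is neprilysin, a membrane zinc peptidase that cleaves small signalling peptides outside the cell and is used, as the antigen CALLA, to mark early lymphoid cells and some stromal cells. ITGA4 is the alpha-4 integrin chain, which pairs with ITGB1 or ITGB7 to bind VCAM1 and fibronectin.

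All 5 genes had their highest FPKM in P5 and their lowest in P10. MME had an FPKM of 0.349 in P10, 21.5 in P5 and 5.02 in PEF. HAPLN1 had an FPKM of 0.109 in P10, 16.8 in P5 and 3.70 in PEF. MEOX2 was at 0.0314 in P10, 15.2 in P5 and 3.21 in PEF. The transcription factor thus had the lowest P10 value of the set, while in P5 it stood close to HAPLN1. HHIP was at 0.101 in P10, 10.4 in P5 and 2.07 in PEF. ITGA4 was at 0.280 in P10, 5.34 in P5 and 1.67 in PEF. FPKM is scaled to length, so levels can be set side by side between genes, and the order from MME through HAPLN1, MEOX2 and HHIP to ITGA4 was the same in P5 and in PEF. In P10 the order was MME, ITGA4, HAPLN1, HHIP and MEOX2, but all 5 values lay under 1 there and this order is uncertain.

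**Figure D1:**
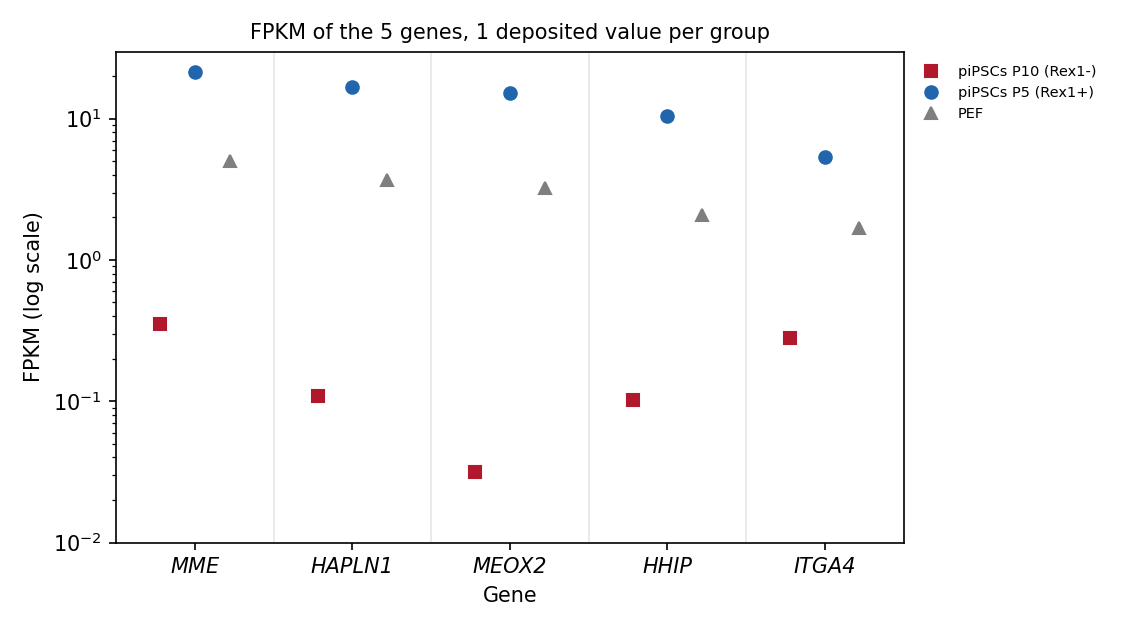
FPKM (log axis) of each of the 5 genes in P10 (squares), P5 (circles) and PEF (triangles), with 1 deposited value per group and no error. In every gene the P5 value lies above the PEF value and the P10 value lies below it, and the P10 values run from 0.0314 for MEOX2 to 0.349 for MME.

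On log2(FPKM + 1), P5 minus PEF was 1.94 for MEOX2, 1.92 for HAPLN1, 1.90 for MME, 1.89 for HHIP and 1.25 for ITGA4. All but ITGA4 thus lay within a narrow band of that difference. Among all compared IDs 21.4% were higher in P5 than in PEF by at least 1, and 1019 IDs had a larger difference than MEOX2. As plain FPKM ratios, P5 over PEF ran from 3.19 for ITGA4 to 5.00 for HHIP. P10 minus PEF was -2.16 for MME, -2.08 for HAPLN1, -2.03 for MEOX2, -1.48 for HHIP and -1.06 for ITGA4. Here 19.3% of compared IDs were lower by at least 1, and 961 IDs lay below MME. Neither difference alone set these genes apart by its size.

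The added 1 in log2(FPKM + 1) compresses values under 1, which is where all 5 genes lay in P10. As a share of the PEF value, the P10 FPKM was 0.978% for MEOX2, 2.95% for HAPLN1, 4.89% for HHIP, 6.96% for MME and 16.7% for ITGA4. As a share of the P5 value it was 0.207% for MEOX2, 0.650% for HAPLN1, 0.977% for HHIP, 1.62% for MME and 5.24% for ITGA4. By these P10 shares, without the added 1, MEOX2 differed most and ITGA4 least. The P10 values behind them were low, from 0.0314 to 0.349, and carry no error. The size and order of the smallest shares are therefore uncertain. P10 minus P5 on log2(FPKM + 1) was -4.06 for MME, -4.01 for HAPLN1, -3.97 for MEOX2, -3.37 for HHIP and -2.31 for ITGA4. In that comparison 8.48% of compared IDs were lower by at least 1, and 22, 23, 24, 36 and 139 IDs had a lower difference than MME, HAPLN1, MEOX2, HHIP and ITGA4. These ranks follow from the choice of genes.

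**Figure D2:**
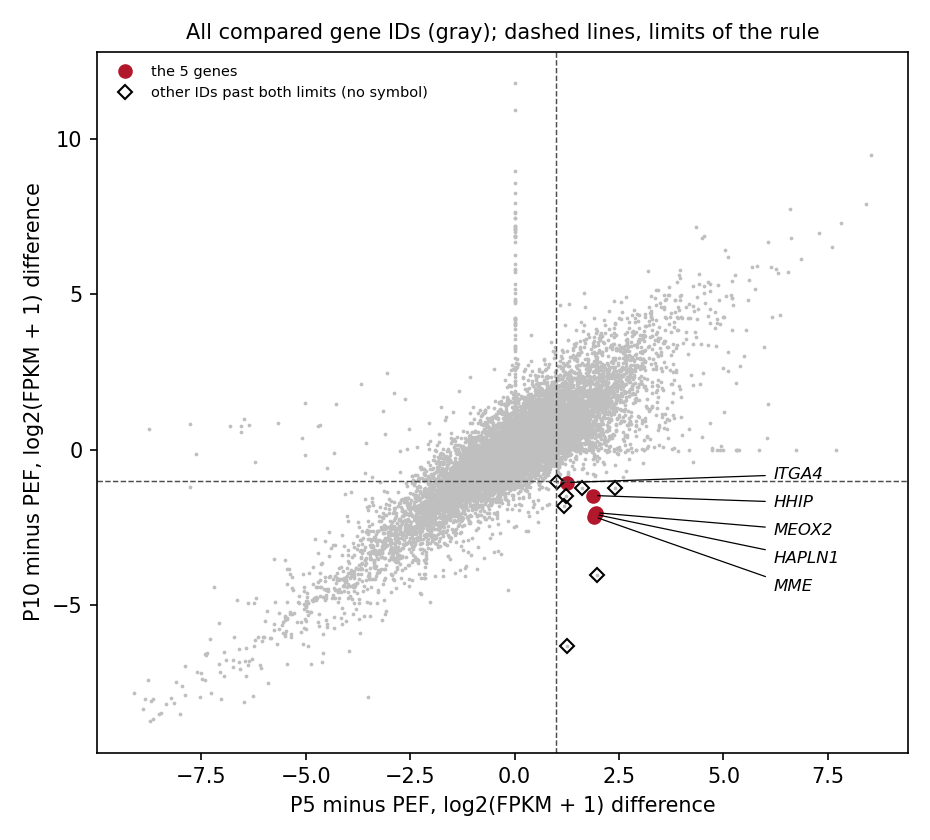
P10 minus PEF against P5 minus PEF, both as log2(FPKM + 1) differences, for the 13998 compared gene IDs (gray), the 5 genes (red circles) and the 7 other IDs past both limits (open diamonds). Dashed lines mark 1 on the horizontal and -1 on the vertical axis; both axes use the same PEF column, so the diagonal cloud is not evidence of a relation.

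Placed among all compared IDs, the 5 genes stood in the lowest part of the P10 column and further up in the P5 column. These ranks follow in part from the choice of genes. In P10 they stood between percentile 1.50 (MEOX2) and 4.82 (MME). In P5 they stood between percentile 39.7 (ITGA4) and 75.2 (MME), and in PEF between 21.5 (ITGA4) and 39.6 (MME). The median FPKM of compared IDs was 7.78 in P10, 7.92 in P5 and 8.11 in PEF. All 5 genes were below that median in P10 and in PEF, and all but ITGA4 were above it in P5. None of the 5 reached an FPKM of 1 in P10, and each passed the filter through both P5 and PEF.

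ITGA4 was the member nearest to the limits, at -1.06 for P10 minus PEF. Of genes with a symbol, the nearest outside were UPP1, a uridine phosphorylase, CLIC6, a chloride intracellular channel protein, and LGR5, a receptor for R-spondins that marks several epithelial stem cells. UPP1 was at 1.15 in P10, 22.7 in P5 and 2.94 in PEF, and missed the P10 limit with a difference of -0.87. CLIC6, at a locus shared by 2 IDs, was at 0.525 in P10, 9.45 in P5 and 1.77 in PEF, and missed it with -0.86. LGR5 was at 0.352 in P10, 7.06 in P5 and 3.52 in PEF, and missed the P5 limit with 0.83. The 7 IDs without a symbol that met both limits included 3 listed at 0 in P10 and 2 with loci under 200 bases. The most abundant of them, ENSSSCG00000006806, was at 381 in P10, 3013 in P5 and 1331 in PEF.

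Likeness between genes was measured as the Euclidean distance over the 3 values of log2(FPKM + 1). The 5 genes were chosen by these same values, so their nearness to each other and to genes just outside the limits follows in part from the choice. MEOX2 and HAPLN1 were 0.24 apart and were each other's nearest gene among the 8944 compared genes with a symbol. MME lay 0.57 from HAPLN1 and 0.80 from MEOX2, and its next nearest gene was UPP1 at 0.91. HHIP was nearest to CLIC6 at 0.51, then to MEOX2 at 0.69 and LGR5 at 0.80. ITGA4 stood away from the rest of the set, from 0.89 to HHIP up to 2.17 to MME. Its nearest genes were A2M, the protease inhibitor alpha-2-macroglobulin, at 0.54, EGR2, an immediate early zinc finger factor, at 0.57, and CMKLR2, a chemerin receptor, at 0.59. A2M was at 0.0867 in P10, 5.43 in P5 and 2.75 in PEF.

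MEOX2 (ENSSSCG00000015357) lies on chromosome 9 from 93596104 to 93662024 on the susScr3 build, in the table's own coordinates. Its paralog MEOX1 was at 0.163 in P10, 0.0559 in P5 and listed at 0 in PEF. Of 20 paraxial mesoderm and somite genes listed, 12 had a row and 7 were compared. In P10 minus PEF 1 was higher and 5 were lower, with a median of -1.71 against 0.06 over all compared IDs. The counts for P5 minus PEF were again 1 and 5, with a median of -1.33 against 0.09. The background was 19.1% higher and 19.3% lower for P10 minus PEF, and 21.4% higher and 19.6% lower for P5 minus PEF. Without the 2 genes listed at 0 in a group, 1 was higher and 3 were lower than PEF of 5 in each piPSC group.

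The lower somite genes named here did not share the P5 peak of MEOX2. PAX1, a sclerotome factor, was listed at 0 in P10 and P5 and at 12.3 in PEF. TBX18, a T-box factor of somites and of mural cells, was at 0.0847 in P10, 1.87 in P5 and 2.55 in PEF. FOXC2, a forkhead factor of mesoderm, was at 0.193 in P10, 0.360 in P5 and 2.91 in PEF. PAX3, which acts in the dermomyotome and in neural crest, was the higher one, at 24.5 in P10, 8.92 in P5 and 0.352 in PEF. MSGN1, a presomitic mesoderm factor, was listed at 0 in all 3 groups.

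HAPLN1 (ENSSSCG00000014137) lies on chromosome 2 from 93942377 to 93981389. VCAN, the hyalectan versican that link protein holds on hyaluronan, lies 46.9 kb away and had a different profile, at 22.5 in P10, 30.3 in P5 and 222 in PEF. ACAN, the cartilage hyalectan aggrecan, was at 0.229 in P10, 1.24 in P5 and 0.108 in PEF. HAPLN3, a link protein of wider distribution, was at 2.37 in P10, 2.25 in P5 and 5.25 in PEF, and HAPLN2, a brain link protein, stayed under 1 in all groups. HAPLN1 was thus the link protein with the highest FPKM in P5 among the 3 with a row.

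Of the hyaluronan synthases, HAS2 was at 0.319 in P10, 3.72 in P5 and 13.3 in PEF, and HAS1 was at 2.85 in P10, 1.63 in P5 and 1.06 in PEF. HAS2 thus had its lowest value in P10, as HAPLN1 did, but its highest in PEF. The hyaluronan receptor CD44 was at 54.7 in P10, 37.4 in P5 and 296 in PEF. HMMR, a hyaluronan-binding protein of the mitotic spindle at a locus shared by 3 IDs, was at 24.5 in P10, 42.5 in P5 and 9.33 in PEF. CEMIP2, a cell surface hyaluronidase, was at 69.8 in P10, 29.2 in P5 and 18.7 in PEF. Across the 4 hyaluronan lists 35 genes were named and 19 compared. In P10 minus PEF 5 were higher and 6 lower (median -0.49), against 19.1% and 19.3% of all compared IDs. In P5 minus PEF 4 were higher and 7 lower (median -0.01), against 21.4% and 19.6%, and quantile normalization left 1 higher and 8 lower. In P10 minus P5 2 were higher and 2 lower, HAS2 and the proteoglycan-cleaving protease ADAMTS1 being the lower ones, against 7.57% and 8.48%.

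HHIP (ENSSSCG00000009045) lies on chromosome 8 from 88870161 to 88941208. More of the other Hedgehog genes compared were higher than lower in each piPSC group beside PEF. The ligands had no value of 1 or more: SHH was listed at 0 in P10 and PEF and at 0.0544 in P5, and IHH was listed at 0 in P10, at 0.0981 in P5 and at 0.0146 in PEF. DHH, at a locus shared by 7 IDs, was listed at 0 in P10, at 0.336 in P5 and at 0.0278 in PEF. An exact 0 in this table can be a failed estimate, so no fold is drawn for the ligands.

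The receptor PTCH1, like HHIP a target of the pathway in mouse and human cells, was at 12.98 in P10, 25.8 in P5 and 4.97 in PEF. Its P10 minus PEF difference was 1.23, where that of HHIP was -1.48. The signal transducer SMO, at a locus shared by 2 IDs, was at 28.0 in P10, 27.8 in P5 and 11.0 in PEF. The co-receptor CDON was at 35.8 in P10, 9.13 in P5 and 2.82 in PEF, and the co-receptor BOC was at 56.2 in P10, 27.2 in P5 and 7.28 in PEF. Both co-receptors were therefore highest in P10, where HHIP was lowest, as its choice required. PTCH1 and the co-receptor GPC3, at 5.57 in P10, 6.46 in P5 and 1.91 in PEF, were highest in P5, as HHIP was. The 5 receptors and co-receptors compared, of 8 listed, were higher than PEF by at least 1 in P10 and in P5, as deposited and under each of 3 scalings. Over all compared IDs 19.1% were higher in P10 minus PEF and 21.4% in P5 minus PEF. Of the ligand and release list 3 genes were compared, SCUBE1, SCUBE3 and HHAT, the last at a locus shared by 2 IDs, and no ligand was. As deposited, SCUBE1 and SCUBE3 were higher in P10 and SCUBE1 in P5. Quantile normalization gave 1 higher and 1 lower in each piPSC group. Of the 7 transduction and GLI genes compared, 2 were higher in each.

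Among the transcription factors GLI1, a target and effector of the pathway at a locus shared by 2 IDs, stayed under 1, at 0.118 in P10, 0.485 in P5 and 0.134 in PEF. GLI2, the main activator, was at 6.57 in P10, 10.6 in P5 and 2.60 in PEF. GLI3, mainly a repressor, was at 17.2 in P10, 12.6 in P5 and 13.3 in PEF. SUFU, which holds GLI factors in the cytoplasm, was at 18.3 in P10, 15.8 in P5 and 7.37 in PEF. GLI1 and GLI2 thus had their highest value in P5, as HHIP did, and GLI3 and SUFU had theirs in P10. GLI1, under 1 throughout, also had its lowest value in P10. In all, 25 Hedgehog genes were listed and 15 compared. In P10 minus PEF 9 were higher and 0 lower (median 1.15), against 19.1% of compared IDs higher. In P5 minus PEF 8 were higher and 0 lower (median 1.003), against 21.4% higher. Quantile normalization gave 7 higher and 2 lower for P10 minus PEF, and 8 higher and 2 lower for P5 minus PEF. In P10 minus P5 2 were higher, CDON and BOC, and 0 were lower, against 7.57% and 8.48% of compared IDs.

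**Figure D3:**
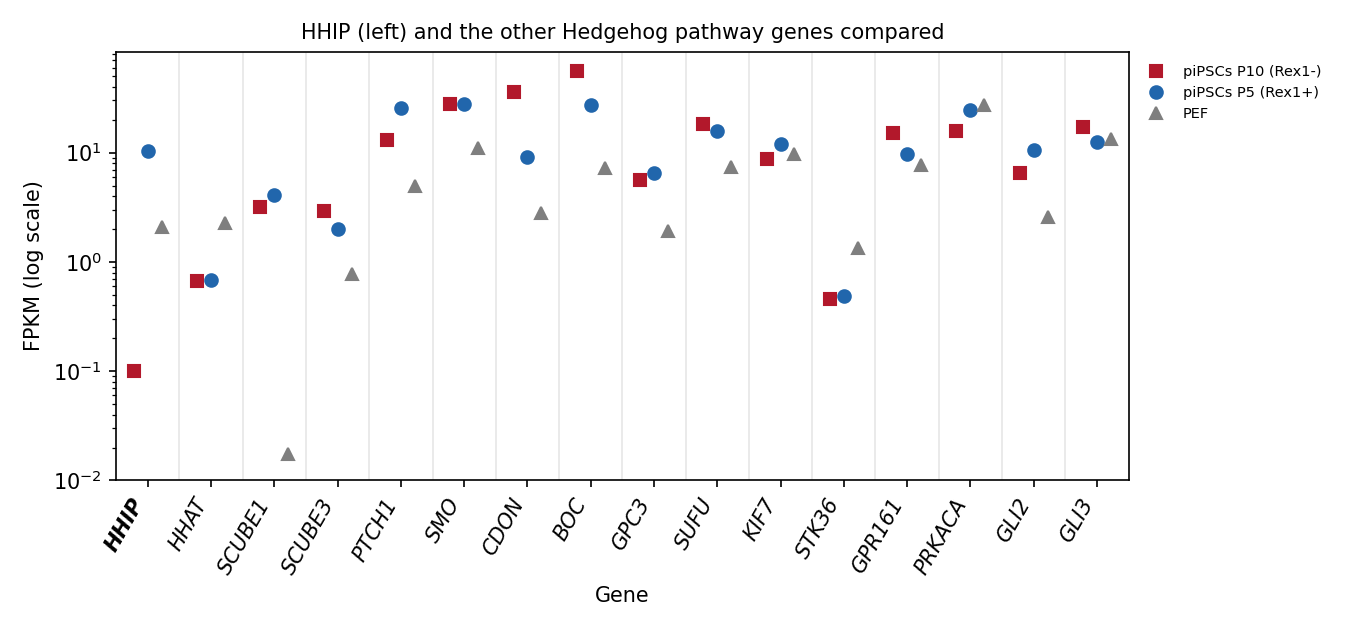
FPKM (log axis) of HHIP and of the 15 other Hedgehog pathway genes compared, in P10 (squares), P5 (circles) and PEF (triangles), 1 value per group. HHIP is at 0.101 in P10, while CDON and BOC are at 35.8 and 56.2 in P10. PTCH1 is highest in P5, at 25.8, as HHIP is, at 10.4.

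MME (ENSSSCG00000011723) lies on chromosome 13 from 103030829 to 103128284. The 2 family members compared had their highest FPKM in PEF. ECE1, which makes endothelin from its precursor, was at 14.9 in P10, 29.8 in P5 and 48.4 in PEF. ECEL1, a neuronal member, was at 0.682 in P10, 0.190 in P5 and 6.98 in PEF. MMEL1, PHEX and KEL stayed under an FPKM of 1 in all groups.

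Other peptidases of the cell surface went different ways. ENPEP, the glutamyl aminopeptidase that trims angiotensin, was at 0.0181 in P10, 5.66 in P5 and 0.0692 in PEF. Like MME it was high in P5 beside P10, with a P10 minus P5 difference of -2.71, but it was also near 0 in PEF. ANPEP, the alanyl aminopeptidase CD13, was at 0.872 in P10, 1.16 in P5 and 21.4 in PEF, and DPP4, a dipeptidyl peptidase, was at 0.0330 in P10, 0.190 in P5 and 10.7 in PEF. Both were thus high in the fibroblasts, where MME was at 5.02.

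Of precursors whose peptides neprilysin cleaves, PENK, the enkephalin precursor, was at 0.0734 in P10, 0.140 in P5 and 24.0 in PEF. TAC1, the substance P precursor, was listed at 0 in P10 and was at 0.244 in P5 and 4.71 in PEF. ADM, adrenomedullin, was at 0.463 in P10, 0.978 in P5 and 34.1 in PEF. NPY, neuropeptide Y, was at 8.30 in P10, 2.51 in P5 and 1.35 in PEF. Over the family, the other peptidases and the precursors, 30 genes were listed and 17 compared. In P10 minus PEF 2 were higher and 10 lower (median -1.62), against 19.1% higher, 19.3% lower and a median of 0.06 over all compared IDs. In P5 minus PEF 3 were higher and 8 lower (median -0.68), against 21.4%, 19.6% and 0.09. Without the genes listed at 0 in any group the medians were -1.37 and -0.68 over 15 genes. In P10 minus P5 1 was higher, NPY, and 2 were lower, ENPEP and the neurotensin precursor NTS. Over all compared IDs the shares there were 7.57% higher and 8.48% lower.

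ITGA4 (ENSSSCG00000016009) lies on chromosome 15 from 96521133 to 96637212, a locus that it shares with CERKL. CERKL, a ceramide kinase-like gene, was at 0.139 in P10, 0.291 in P5 and listed at 0 in PEF, and how reads at the locus were divided is uncertain. The beta partner ITGB1 was at 146 in P10, 191 in P5 and 1656 in PEF, and the alternative partner ITGB7 was at 0.0153 in P10, 0.118 in P5 and 0.691 in PEF. ITGB1 was thus far above ITGA4 in all groups.

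Most other integrin alpha chains were highest in the fibroblasts. Of 12 compared among 16 listed, 0 were higher and 8 lower in P10 minus PEF (median -2.05), against 19.3% of compared IDs lower. In P5 minus PEF 1 was higher and 7 lower (median -2.13), against 21.4% and 19.6% of compared IDs. The higher one was ITGA9, the alpha chain closest in sequence to ITGA4 in mammals. ITGA9, at a locus shared by 2 IDs, was at 1.59 in P10, 6.01 in P5 and 2.25 in PEF. Its P5 minus PEF difference was 1.11 and its P10 minus PEF difference was -0.33, so it fell short of the P10 limit. ITGA5, the main fibronectin receptor chain, was at 6.86 in P10, 8.62 in P5 and 176 in PEF. ITGA1, a collagen receptor chain at a locus shared by 3 IDs, was at 0.412 in P10, 7.10 in P5 and 125 in PEF, and ITGA8 was at 0.559 in P10, 1.82 in P5 and 240 in PEF.

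**Figure D4:**
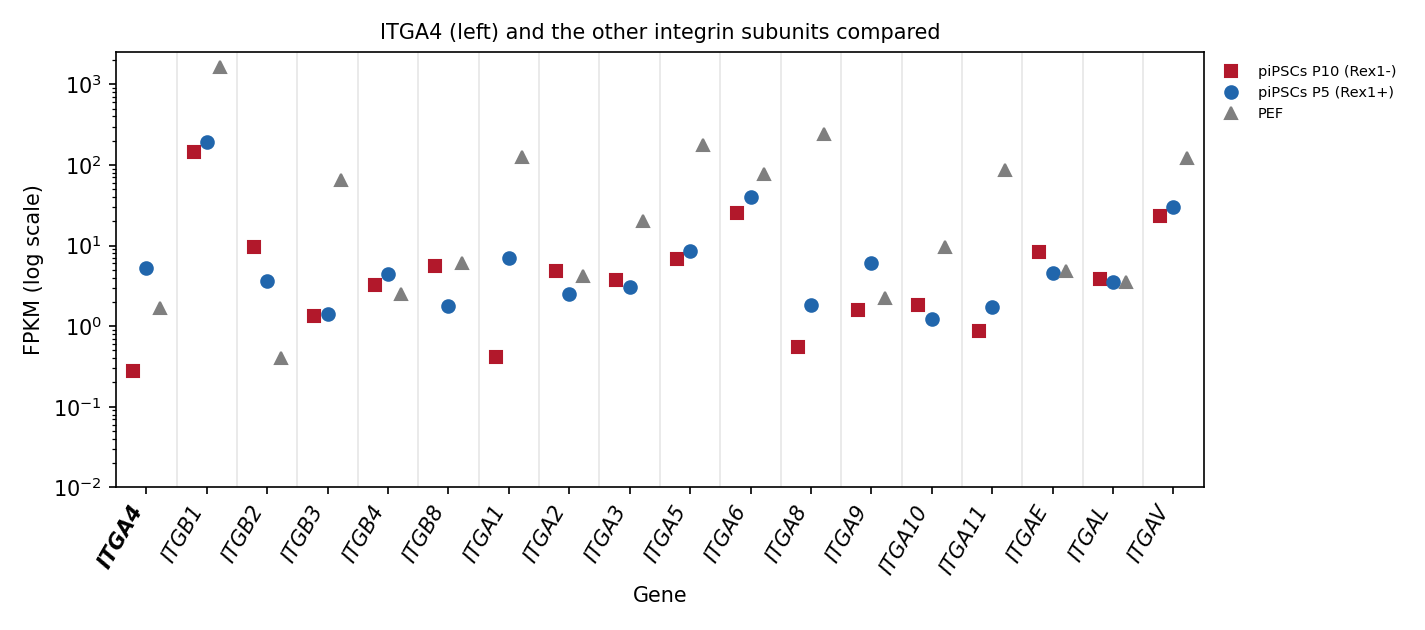
FPKM (log axis) of ITGA4 and of the 17 other integrin subunits compared, in P10 (squares), P5 (circles) and PEF (triangles), 1 value per group. ITGA4, ITGA9 and ITGB4 have their highest value in P5, at 5.34, 6.01 and 4.47. ITGA1, ITGA5, ITGA8 and ITGB1 have theirs in PEF, at 125, 176, 240 and 1656.

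Of the ligands of alpha-4 integrins, VCAM1 was at 0.0988 in P10, 0.224 in P5 and 10.0 in PEF. SPP1, osteopontin, was at 0.496 in P10, 0.902 in P5 and 167 in PEF, and EMILIN1 was at 2.15 in P10, 2.25 in P5 and 91.8 in PEF. These 3 were higher in PEF than in both piPSC groups. JAM2, at a locus shared by 3 IDs, went the other way, at 3.12 in P10, 2.97 in P5 and 0.259 in PEF. FN1, fibronectin, was at 26.9 in P10 and 47.1 in P5 and listed at 0 in PEF, and THBS1, thrombospondin, was at 41.4 in P10 and 23.8 in P5 and listed at 0 in PEF. No fold is given for these, since an exact 0 for such genes in fibroblasts can be a failed estimate. Of the 6 ligands compared 3 were higher and 3 lower than PEF in each piPSC group, and without FN1 and THBS1 1 was higher and 3 were lower. Of 9 adaptors compared, among them talin TLN1, vinculin VCL and parvin PARVA, 0 were higher and 6 lower in P10 minus PEF. In P5 minus PEF 0 were higher and 5 lower. For the ligands and the adaptors alike, the shares over all compared IDs were 19.1% higher and 19.3% lower in P10 minus PEF. In P5 minus PEF they were 21.4% higher and 19.6% lower.

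**Figure D5:**
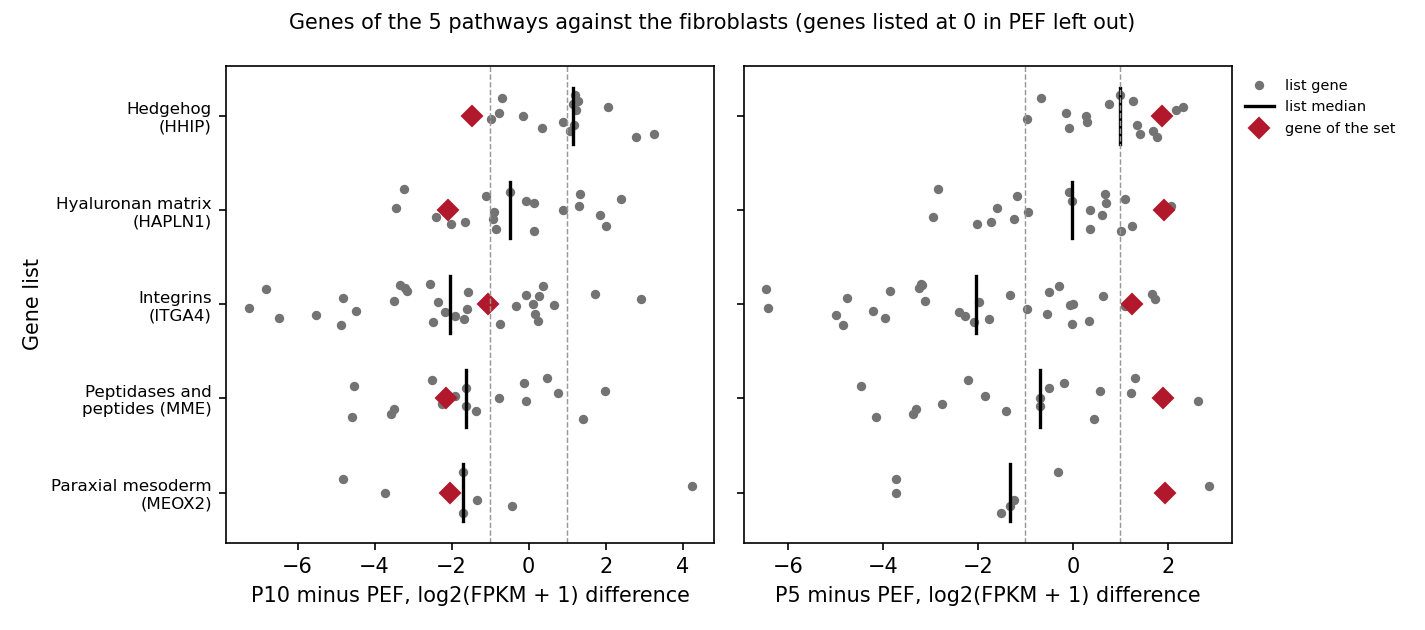
Log2(FPKM + 1) differences of the genes of each pathway (gray points, with the list median as a bar) and of the corresponding gene of the 5 (red diamond), P10 minus PEF at left and P5 minus PEF at right. FN1 and THBS1, listed at 0 in PEF, are left out, which moves the integrin medians to -2.05 and -2.04; dashed lines mark -1 and 1.

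The 5 genes lie on 5 chromosomes. Of the 31 gene IDs nearest to them, 3 on each side and 1 overlapping, 15 were compared. In P10 minus PEF 3 of these were higher and 4 lower, against 19.1% and 19.3% of all compared IDs. For P5 minus PEF 5 were higher and 2 lower, against 21.4% and 19.6%, and in P10 minus P5 0 were higher and 2 lower, against 7.57% and 8.48%. DGKB, a diacylglycerol kinase 1112 kb from MEOX2, was at 2.72 in P10, 1.23 in P5 and 0.0241 in PEF. ENSSSCG00000027138, an ID without a symbol 584 kb from MEOX2, was listed at 0 in P10 and was at 2.11 in P5 and 1.08 in PEF. It shares its start with another ID. EDIL3, a secreted integrin ligand 226 kb from HAPLN1, was at 0.302 in P10, 0.771 in P5 and 56.6 in PEF. PLCH1, a phospholipase C 302 kb from MME, was at 9.76 in P10, 9.07 in P5 and 0.0967 in PEF. NEUROD1, a neuronal transcription factor 24.8 kb from ITGA4, was at 3.29 in P10, 5.09 in P5 and 0.0297 in PEF. Another ID without a symbol, ENSSSCG00000030517, 43.0 kb from HHIP, was at 0.592 in P10, 6.42 in P5 and 1.40 in PEF. Both of these IDs thus had their highest value in P5 and their lowest in P10, and both were singled out after their values were seen.

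Marker lists were set beside these values. All 8 fibroblast markers compared were lower than PEF by at least 1 in both piPSC groups. Over all compared IDs 19.3% were lower in P10 minus PEF and 19.6% in P5 minus PEF. The fibroblast markers had a summed FPKM of 28.5 in P10, 117 in P5 and 3126 in PEF. The 6 smooth muscle markers were also lower in both, with sums of 135 in P10, 89.8 in P5 and 8900 in PEF. COL3A1 differed within the piPSCs, at 3.11 in P10, 87.9 in P5 and 1016 in PEF. The 4 pluripotency markers with a row, LIN28A, DNMT3B, EPCAM and CDH1, summed to 243 in P10, 548 in P5 and 2.22 in PEF. LIN28A made up 204 of the P10 sum and 299 of the P5 sum. In P10 minus P5 the other 3 were lower by at least 1, against 8.48% of all compared IDs. DNMT3B was at 24.4 in P10 and 159 in P5, EPCAM at 6.07 and 41.6, and CDH1 at 7.89 and 48.7. POU5F1, NANOG, SOX2 and ZFP42 are not analysed here. The 8 neural markers summed to 1075 in P10, 468 in P5 and 107 in PEF, with STMN2 making up 594, 253 and 19.7 of these. Of the 8, 6 were higher and 0 lower in each piPSC group, against 19.1% (P10) and 21.4% (P5) of compared IDs higher. NES was not among the higher ones, at 27.2 in P10, 16.7 in P5 and 27.8 in PEF, nor was TUBB3.

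Marker lists of other cell types in which single genes of the set are known held genes with different profiles. Of 6 endothelial markers with a row, PECAM1 was at 1.17 in P10, 12.8 in P5 and 2.78 in PEF, and KDR, at a locus shared by 2 IDs, was at 0.668 in P10, 3.80 in P5 and 0.00401 in PEF. TIE1, at a locus shared by 2 IDs, was instead highest in P10, at 3.40 in P10, 1.75 in P5 and 0.0400 in PEF, and ENG was highest in PEF, at 2.28 in P10, 2.91 in P5 and 16.7 in PEF. Of the 5 endothelial markers compared, 2 were higher and 1 lower in P10 minus PEF, and 4 were higher and 1 lower in P5 minus PEF. For this list and those below, the shares over all compared IDs were 19.1% higher and 19.3% lower in P10 minus PEF. In P5 minus PEF they were 21.4% higher and 19.6% lower. The list summed to 8.92 in P10, 23.4 in P5 and 19.5 in PEF, most of the PEF sum being ENG. The 6 blood and lymphoid markers summed to 1.81 in P10, 3.11 in P5 and 1.21 in PEF, and PTPRC was listed at 0 in P10 and PEF and at 0.356 in P5. The 7 chondrocyte markers summed to 31.5 in P10, 27.3 in P5 and 322 in PEF, with COL11A1 at 306 in PEF. COL2A1, at 5.19 in P10, 7.18 in P5 and 0.0262 in PEF, and COL9A1, at 7.38 in P10, 10.6 in P5 and 0.0147 in PEF, went the other way. Of 6 chondrocyte markers compared, 2 were higher and 2 lower in P10 minus PEF, and 3 were higher and 2 lower in P5 minus PEF. The 7 paraxial mesoderm and myogenic markers summed to 28.8 in P10, 10.8 in P5 and 20.05 in PEF, with MSGN1 at 0 in all groups and PAX3 making up 24.5 of the P10 sum and 8.92 of the P5 sum. Of 4 compared, 1 was higher and 2 lower in P10 minus PEF, and 1 was higher and 3 lower in P5 minus PEF. The part of other cell types in the values of the 5 genes was not tested, and in bulk RNA fewer cells of a type and less RNA per cell cannot be told apart.

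How deeply each column was sequenced is unknown. Among low values, the commonest ratio between columns put P10 at 1.42 times and P5 at 0.729 times the depth of PEF. These rest on 21 of 678 and 16 of 589 genes under an FPKM of 0.15 in both columns, so they are a hint only. The part of sequencing depth in the values of the 5 genes was not tested. The FPKM summed to 826083 in P10, 628992 in P5 and 821130 in PEF.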

How the data were processed

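Total RNA from 6 libraries in 3 groups was sequenced, per the labels. Bowtie2 2.0.6, TopHat2 2.0.9 and the susScr3 build are named in the submitters' processing notes. Per the file headers, the deposited values are FPKM, and each group has 1 column. The labels do not say which program made the FPKM, from which annotation, or how duplicates were merged.

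Symbols from a table of gene IDs matched 11804 of 25322 IDs, or 46.6%. Differences were taken on log2(FPKM + 1) for IDs that reached an FPKM of 1 in any group, and a difference of 1 or more was counted. Python 3.11.15, pandas 2.3.3 and numpy 2.4.6 were used. A test with limma was planned for values per library; with 1 column per group the plan gave a description in its place. Named genes were the 5 genes, the 3 nearest outside the limits, the 3 nearest by distance and members of the pathway and marker lists; neighbours were added later. The members and lists were chosen with earlier results of these data known. The counting was tested on simulated data with mostly higher fibroblast levels and larger P5 rises than those of the 5 genes. That test therefore says little about counting in their range. As 8 alternatives, the pseudocount was set to 0.1 or 5, the filter was dropped or raised to a mean FPKM of 5, values were scaled in 3 ways (median, quantile, trimmed mean) and the limit was raised to 2. Some genes of the lists are not reported here by name.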

Additional observations from a re-analysis of the deposited data

How the results depend on the processing

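No paired analysis was possible because the table holds 1 column per group, and for the same reason no library could be left out. Filters and limits leave the differences of the 5 genes as they are and a pseudocount cannot turn their sign, so no stability is read from their directions. With a pseudocount of 5 or a limit of 2 on the log2 scale, 0 of the 5 genes met both limits. ITGA4 then differed by 0.63 (P5 minus PEF) and -0.34 (P10 minus PEF) with that pseudocount. A filter at a mean FPKM of 5 removed HHIP and ITGA4, and the other 3 met both limits. Under the other alternatives all 5 met them.

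The 12 IDs past both limits became 47 with a pseudocount of 0.1, 3 with a pseudocount of 5 and 0 at a limit of 2. Counts of IDs past 1 in either direction were 2247 for P10 minus P5, 5383 for P10 minus PEF and 5734 for P5 minus PEF. With a pseudocount of 0.1, P10 minus P5 gave 3418. With a pseudocount of 5 the counts were 878, 3011 and 3242, and at a limit of 2 they were 374, 2031 and 2042. Where the mean FPKM had to reach 5, P10 minus P5 gave 1366 and P10 minus PEF 3495, but only 9222 IDs were compared there, against 13998. The other alternatives stayed within 1.5 times the counts as reported.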
